A study of Mus musculus with 6 samples.

Results

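The translation initiation and elongation factors are the proteins that bring the ribosome to an mRNA, find the start codon and then feed amino acids into the growing chain. Their genes were taken as all array spots with a single annotated symbol beginning Eif1 to Eif6 or Eef1 to Eef2, leaving out the kinases Eif2ak and Eef2k. The rule found 44 genes on 88 spots, of 7151 named genes in all. Of these, 26 genes on 38 spots were bright enough to be compared, and the other 18 genes had no spot above the brightness filter. RNA came from whole livers of 3 male mice, 1 per group, and was hybridised to 2 kinds of expression array, A and B. The groups were a mouse under caloric restriction killed at 177 days, an ad libitum mouse killed at 174 days and an ad libitum mouse killed at 17 days. The unit of the age of 17 days rests on the label, and neither strain nor the degree of restriction is given in the sources used here. With 1 mouse per group no difference has a replicate check or a p-value.

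In eukaryotic initiation, eIF2 carries the initiator tRNA to the small ribosomal subunit and eIF2B, its exchange factor, reloads it with GTP. The eIF4F complex binds the mRNA cap and unwinds the leader, eIF3 bridges mRNA and ribosome, and eIF5 and eIF1A help to settle on the start codon. Elongation is driven by eEF1A, which delivers aminoacyl-tRNA, by its exchange complex of eEF1B subunits, and by eIF5A, which relieves stalled ribosomes. In liver, food intake acts on this machinery through phosphorylation of eIF2 and through mTORC1, which controls the eIF4E-binding proteins, control that mRNA levels do not show.

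The values are spot intensities normalized to the same distribution across the 3 arrays of a kind, on a log2 scale, and a gene's difference is the median over its probes above the filter. The ad libitum 174-day arrays were the dimmest, with a median intensity of 375 in the restricted liver, 35.8 in the 174-day liver and 364.3 in the 17-day liver on array A. The log2 intensities on array A correlated across spots with Pearson r of 0.905 between the restricted and the 174-day mouse, 0.961 between the restricted and the 17-day mouse and 0.928 between the 174-day and the 17-day mouse. Both the age and the diet comparison use the 174-day mouse, and all 3 comparisons share mice. Of 31 hepatocyte markers, 9 were on the arrays and 8 passed the filter, with the albumin probe at the 99.95th percentile of level. The hepatocyte probes held 0.34%, 0.32% and 0.34% of array intensity in the restricted, the 174-day and the 17-day mouse, as the mean of both arrays. In whole liver, fewer cells of a type and less RNA per cell cannot be told apart.

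The promoters of the eIF2A gene and of the eIF2B genes that could be compared are shown because the 2-fold differences fall among these genes. Each line gives the 100 bases before the annotated start, 5′ to 3′ on the gene's strand, from RefSeq for GRCm38.p6. Eif2a lies at chr3:58525721-58525820 (plus strand), Eif2b1 at chr5:124579132-124579231 (minus strand), Eif2b4 at chr5:31193140-31193239 (minus strand) and Eif2b5 at chr16:20498717-20498816 (plus strand). Capitals mark CGGAAG, the core of ETS family sites, and GGGCGG, the GC box, on either strand.
Eif2a: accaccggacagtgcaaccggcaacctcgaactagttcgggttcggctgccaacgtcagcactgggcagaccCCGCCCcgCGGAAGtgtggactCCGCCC
Eif2b1: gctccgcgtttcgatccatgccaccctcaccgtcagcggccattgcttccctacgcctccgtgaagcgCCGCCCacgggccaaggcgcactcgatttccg
Eif2b4: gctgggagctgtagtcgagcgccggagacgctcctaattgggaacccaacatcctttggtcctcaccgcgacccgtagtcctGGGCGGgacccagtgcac
Eif2b5: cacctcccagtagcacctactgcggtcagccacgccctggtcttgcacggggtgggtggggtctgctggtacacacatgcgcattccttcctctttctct
In windows from 250 bases before to 50 after the start, CGGAAG was present in 18 of the 32 factor genes with a promoter entry, which is 56.25%, against 18.8% of 27025 genes. GGGCGG was present in 25 of the 32 factor genes (78.1%), against 38.2% of all genes. Eif2b5 has neither motif in the bases printed. A match of letters describes the sequence and does not show binding.

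Between the ad libitum mice of 174 and 17 days, which address age, the translation factors differed little apart from Eif2a. At 2-fold (1 log2), 1 of 26 factor genes, Eif2a, was higher, where 0.724% of 3865 compared genes were, and 0 were lower, where 0.440% were. At 1.5-fold, Eif2a was higher (3.70% of all genes) and Eif4b, a cofactor of the eIF4A helicase, was lower (4.92% of all genes). The median over the 26 genes was 0.03 log2, against -0.03 over all genes, with 15 genes above 0 and 11 below. Of all genes, 53.5% lay below 0. Eif2a passed the brightness filter only through the 174-day mouse, since its mean level in the other mice was 7.25 against a filter level of 7.41 there, so nothing is read from its count. Without Eif2a the differences had an SD of 0.30 log2.

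In the diet comparison, caloric restriction at 177 days against ad libitum feeding at 174 days, 0 factor genes were 2-fold higher (2.25% of all genes) and 2 of 26 were 2-fold lower (4.61% of all genes). These were Eif2a and Eif2b1, which encodes the alpha subunit of eIF2B. At 1.5-fold, 2 were higher (11.5% of all genes), namely Eif3k and Eif4b. A further count of 8 were lower (17.0% of all genes), namely Eef1g, Eif2a, Eif2b1, Eif2b4, Eif3a, Eif3b, Eif3i and Eif4e2. The median over the factors was -0.15 log2, against -0.04 over all genes, and 15 of 26 (57.7%) lay below 0, against 52.7% of all genes. Without the 174-day mouse, Eif2a and Eif3b would not have passed the filter. Apart from Eif2a, the lower genes spread over eIF2B, eIF3, cap binding and elongation. In these families 2 of 3, 3 of 5, 5 of 7 and 2 of 3 compared genes lay below 0, and the others lay above.

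Against the 17-day mouse, the restricted 177-day mouse had 0 factor genes 2-fold higher (0.466% of all genes) and 0 lower (1.11% of all genes). At 1.5-fold, Eif2b5 was higher (5.49% of all genes), while Eif2b1 and Eif4e2 were lower (9.91% of all genes). None of these 3 stayed past 1.5-fold after a correction for spot position, described with the spread between probes, where Eif2b5 stood at 0.49, Eif2b1 at -0.48 and Eif4e2 at -0.46. Of all genes, 53 of 210 higher (25.2%) and 110 of 382 lower (28.8%) stayed past that size, so most were lost too. The median was -0.20 log2, against -0.09 over all genes, and 19 of 26 factor genes (73.1%) lay below 0, against 58.8% of all genes. With the same correction the median was 0.01. Diet and age cannot be told apart in this comparison.

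**Figure D1:**
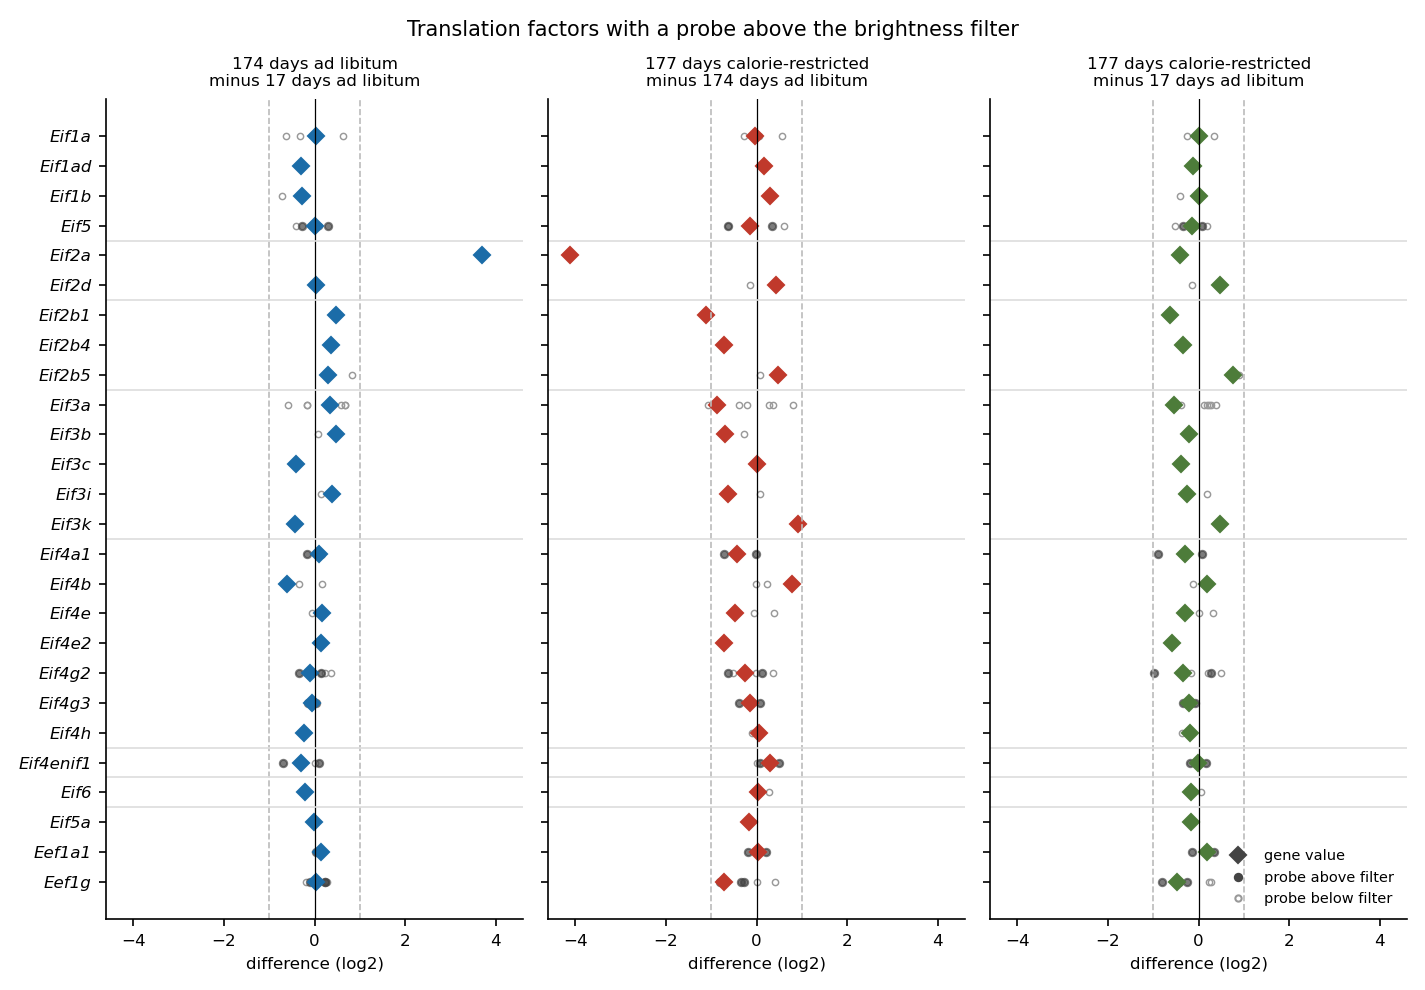
Log2 difference of each of the 26 factor genes in the 3 comparisons (diamonds), with its probes above and below the brightness filter as dots and dashed lines at 2-fold. Eif2a lies at 3.70 for age and -4.12 for diet, and the other genes lie between -1.11 and 0.92 in every panel.

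**Figure D2:**
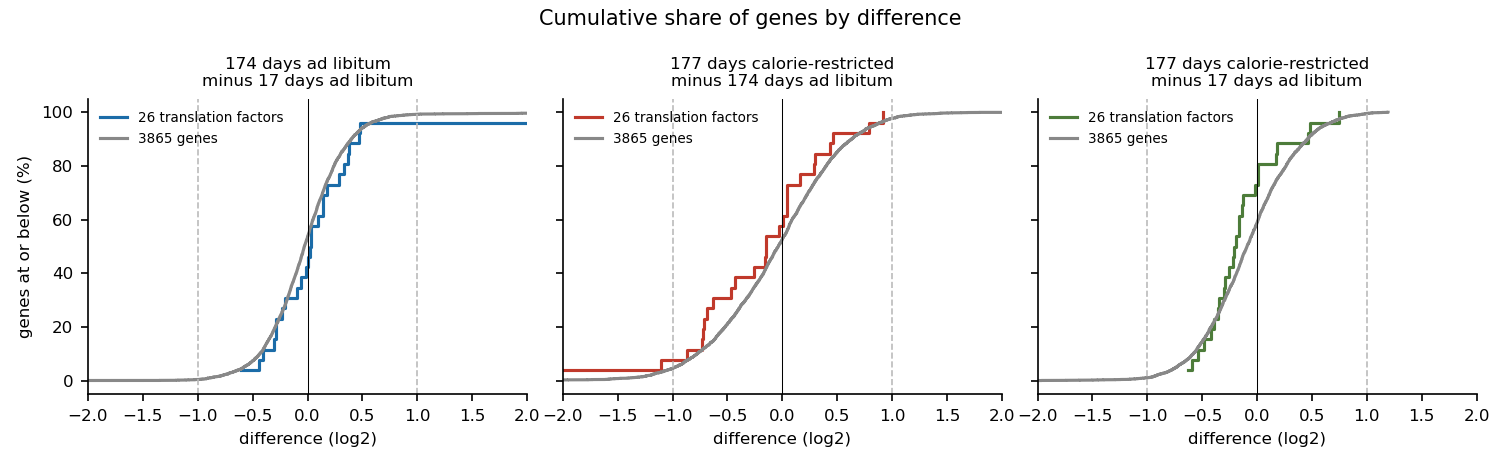
Cumulative share of genes by log2 difference for the 26 translation factors and for all 3865 compared genes, 1 panel per comparison, with the axis ending at 2 log2 on either side so that Eif2a falls outside in the age and diet panels. At its median the factor curve lies left of that of all genes for the restricted against the 17-day mouse (-0.20 and -0.09).

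Probes of the same gene gave the only measure of error. Over 557 genes with several probes above the filter, differences varied between probes of a gene with a pooled SD of 0.45 log2 for age, 0.58 for diet and 0.40 for restricted against young. Among the 7 factor genes with several such probes the SD was 0.25, 0.36 and 0.38. Of the 26 genes, 19 rested on a single probe, so a difference near 0.6 log2 is about the size of the spread between probes in the diet comparison. Differences also varied with the place of a spot in the file, while the layout of the arrays is not given in the sources used here. After a correction for spot position, which took out the median of each of 16 equal blocks of spots in file order and of each place in the blocks, 3 of the 8 factor genes lower under restriction at 1.5-fold stayed past that size (Eif2a, Eif2b1 and Eif2b4), against 265 of 657 genes (40.3%) overall. All 8 kept their sign, as did 629 of the 657 genes. Of the 8, Eif2a and Eif3b passed the filter only through the 174-day mouse, where they were highest, so nothing is read from these counts.

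**Figure D3:**
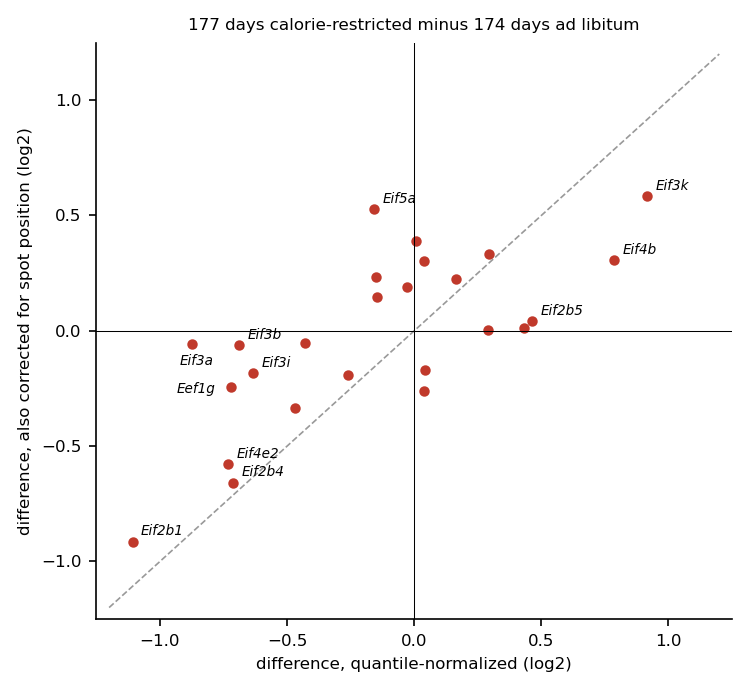
Diet difference of 25 factor genes as measured and after the correction for spot position (log2, Eif2a left out), with the dashed line marking equal values. Eif2b1 and Eif2b4 keep most of their difference (-0.91 and -0.66), while Eif3a and Eif3b move to -0.06.

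Eif2a encodes eIF2A, a protein that can bring initiator tRNA to the ribosome without GTP and is not the alpha subunit of eIF2. Its only spot read 292.3 in the restricted liver, 676.3 in the 174-day liver and 376.6 in the 17-day liver. Relative to the median of each array these are 0.780, 18.9 and 1.03 times. The restricted and the 17-day mouse were thus near the middle of their arrays, whereas the 174-day mouse was far above it. Normalized log2 levels were 7.04, 11.16 and 7.46 in the same order, a difference of 3.70 for age, -4.12 for diet and -0.42 for restricted against young.

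The Eif2a value rests on the 174-day array A, where the spots beside it also ran high. The 6 spots beside it in file order had a median age difference of 0.82 log2, and all 6 lay above 0. Their median diet difference was -1.10, and all 6 lay below 0. The spot directly after it read 487 in the restricted liver, 541.5 in the 174-day liver and 727.2 in the 17-day liver, an age difference of 2.45. Differences of at least 2 log2 with age were seen for 48 of the 8448 spots of array A (0.568%). After the position correction Eif2a still stood at 3.26 for age and -3.22 for diet. Spots that lay 1.5 log2 or more away from the values of the remaining mice numbered 19 for the restricted mouse, 129 for the 174-day mouse and 11 for the 17-day mouse, and Eif2a was the sole factor spot among them. Without such spots of the 174-day mouse, 0 factor genes were 2-fold higher with age (12 of 3850 genes) and 1 was 2-fold lower with diet (161 of 3850 genes). The part of neighbouring spots in the Eif2a value was not tested.

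**Figure D4:**
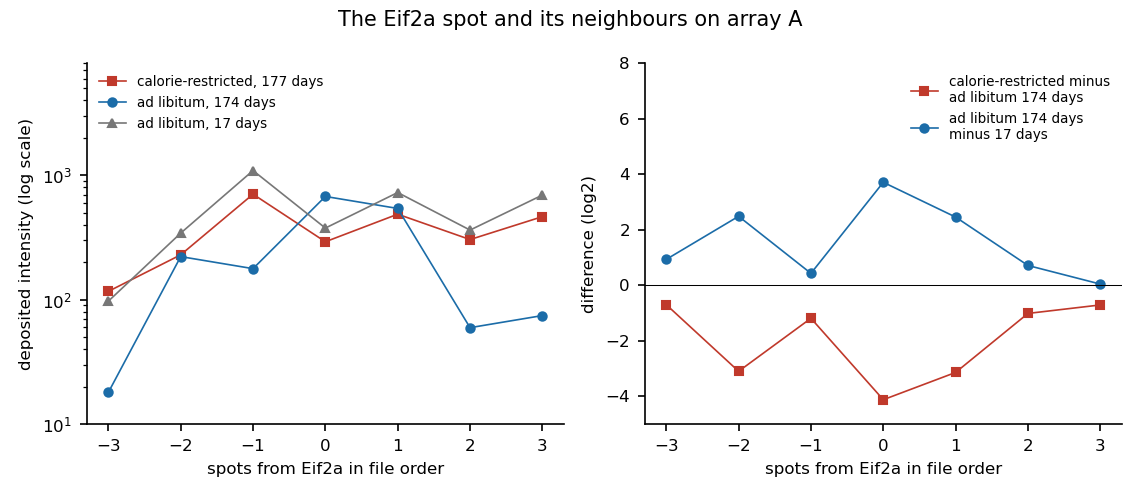
Intensity (log axis, arbitrary units) of the Eif2a spot and of 3 spots on either side in file order for each mouse, and the log2 differences of the same spots. The 174-day mouse reads 676.3 at Eif2a, and the neighbouring spots have age differences from 0.04 to 2.48.

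The eIF2B genes were lower under restriction for 2 of the 3 subunits compared. Eif2b1 read 7.87 in the restricted liver, 8.98 in the 174-day liver and 8.50 in the 17-day liver on the normalized log2 scale, a diet difference of -1.11 and an age difference of 0.48. Eif2b4, for the delta subunit, read 7.34, 8.05 and 7.68 in those mice, a diet difference of -0.71. Both were highest in the 174-day mouse and lowest in the restricted one. The 6 spots beside Eif2b1 had a median diet difference of 0.19, from -0.69 to 1.27, and those beside Eif2b4 one of -0.13. Eif2b5, for the catalytic epsilon subunit, differed from both, with 9.72 in the restricted liver, 9.26 in the 174-day liver and 8.97 in the 17-day liver. Its differences were 0.46 for diet and 0.75 for restricted against young, and a dimmer Eif2b5 probe gave 0.08 and 0.90. After the position correction Eif2b5 was at 0.04 for diet. The median over the 3 genes was -0.71 for diet and 0.37 for age, where all 3 lay above 0.

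No subunit gene of eIF2 itself was bright enough to be compared. The 4 dim probes of Eif2s2, for the beta subunit, ranged from -0.92 to 0.68 with diet and from -0.73 to 0.96 with age, so they disagreed in sign. Eif2d, for another factor able to place tRNA on the ribosome, read 8.19 in the restricted liver, 7.76 in the 174-day liver and 7.73 in the 17-day liver. Its diet difference was 0.43 as measured and 0.01 after the position correction, and a dim Eif2d probe gave -0.15.

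Of 11 eIF3 subunit genes on the arrays, 5 were compared, with medians of 0.33 for age, -0.63 for diet and -0.26 for restricted against young. Eif3a, for a core scaffold subunit, read 8.30 in the restricted liver, 9.17 in the 174-day liver and 8.84 in the 17-day liver, a diet difference of -0.87. Eif3b, another core subunit, read 7.22, 7.91 and 7.45 in those mice, and Eif3i read 8.42, 9.05 and 8.68, with diet differences of -0.69 and -0.63. These genes were all highest in the 174-day mouse and lowest in the restricted mouse. Eif3b passed the filter only through the 174-day mouse, with a mean level of 7.33 in the others against 7.41. Nothing is therefore read from its being highest there, and the medians of the 5 genes include it. Eif3k, for a peripheral subunit, ran the other way with 8.47 in the restricted liver, 7.55 in the 174-day liver and 7.99 in the 17-day liver, a diet difference of 0.92. Eif3c, also of the core, read 9.41, 9.40 and 9.81, a diet difference of 0.01. The 5 genes thus differed in direction. The 7 Eif3a probes, of which 6 were dim, spread from -1.08 to 0.81 with diet. A dim Eif3b probe gave -0.29 with diet and a dim Eif3i probe 0.06. With the position correction the diet difference was -0.06 for Eif3a, -0.06 for Eif3b, -0.18 for Eif3i, 0.39 for Eif3c and 0.59 for Eif3k.

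For cap binding and unwinding, 7 of 8 genes were compared, with a median diet difference of -0.26. For the restricted against the 17-day mouse 6 of 7 lay below 0, as did 58.8% of all genes. There Eif4a1 and Eif4g3 stood at 0.06 and 0.105 after the position correction, and the others lay below 0. Eif4e, the cap-binding protein, read 9.81 in the restricted liver, 10.28 in the 174-day liver and 10.11 in the 17-day liver, a diet difference of -0.47. Its 2 dim probes gave -0.06 and 0.38, so the median over all 3 was -0.06. Eif4e2, which encodes a cap-binding homologue that represses translation, read 8.90, 9.63 and 9.49, with -0.73 for diet and -0.59 against the 17-day mouse. The 6 spots beside Eif4e2 had a median diet difference of -0.69, and all 6 lay below 0. Eif4b read 8.83 in the restricted liver, 8.04 in the 174-day liver and 8.65 in the 17-day liver. It was lowest in the 174-day mouse, with 0.79 for diet and -0.61 for age, which became 0.31 and -0.31 after the position correction. The 2 dim Eif4b probes gave 0.23 and -0.02 for diet and -0.35 and 0.16 for age. The medians over all 3 were 0.23 for diet and -0.35 for age. Eif4h, another helicase cofactor, stayed within 0.24 log2 in all comparisons, with 8.42, 8.38 and 8.62.

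The scaffold and helicase genes had several probes, which differed among themselves. Eif4a1, the helicase, read 7.99, 8.29 and 9.47 on its 3 probes in the restricted mouse, 8.01, 8.72 and 10.19 in the 174-day mouse, and 7.92, 8.58 and 10.37 in the 17-day mouse. Its probes gave diet differences of -0.02, -0.43 and -0.72, all below 0. After the position correction they were -0.05, 0.04 and -0.08, with a gene value of -0.05. The 6 spots beside the third probe all lay below 0 as well, with a median of -0.54. Eif4g2, for a scaffold that lacks the eIF4E site, read 8.28 and 8.46 in the restricted mouse, 8.92 and 8.34 in the 174-day mouse, and 9.27 and 8.19 in the 17-day mouse, so that its probes disagreed in sign for every comparison. Eif4g3, for the second eIF4G scaffold, read 10.17 and 10.65 in the restricted mouse, 10.55 and 10.57 in the 174-day mouse, and 10.52 and 10.72 in the 17-day mouse. Its gene differences lay between -0.21 and -0.06. That for diet was -0.78 with median centring, where the median over all genes was -0.31, and 0.23 after the position correction. Eif4enif1, for the eIF4E transporter that takes eIF4E into the nucleus, read 7.58 and 9.07 in the restricted mouse, 7.08 and 9.00 in the 174-day mouse, and 7.78 and 8.91 in the 17-day mouse. It was the sole compared gene of 3 for eIF4E-binding proteins, since Eif4ebp1 and Eif4ebp3 were dim.

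The genes of start codon selection and subunit joining differed by less than 0.30 log2 in every comparison as quantile-normalized. This did not hold under other settings. With the position correction Eif1b stood at 0.33 for diet and 0.46 for restricted against young. Eif1ad stood at -0.32 for age and Eif6 at -0.32 for restricted against young, while Eif1a and Eif5 stayed within 0.30. With no filter Eif1b was at -0.50 for age. Eif1a read 11.01 in the restricted liver, 11.04 in the 174-day liver and 11.00 in the 17-day liver. Eif1b, for a close relative of the start-site factor eIF1, read 11.87, 11.58 and 11.86, with 0.29 for diet and -0.28 for age. With median centring in place of quantile normalization, Eif1b turned to -0.76 for diet and 0.27 for age, and Eif1a stood at -0.97 and 0.56, beside medians over all genes of -0.31 and 0.21. Eif5, for the factor that prompts eIF2 to hydrolyse GTP, had 1 probe at 7.91, 8.55 and 8.26 in the restricted, the 174-day and the 17-day mouse and another at 12.59, 12.24 and 12.52. The 2 probes ran in opposite directions with diet, at -0.64 and 0.34, and the gene value of -0.15 became -0.74 with median centring. Eif1ad, for an eIF1A domain protein, read 8.03, 7.87 and 8.16 and differed by 0.16 with diet and -0.29 with age. Eif6, for the factor that keeps the large subunit from joining early, read 9.21, 9.17 and 9.38, a diet difference of 0.04.

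Among elongation factors, Eef1g was the one gene with 5 probes above the filter, and all 5 were lower in the restricted mouse than in the 174-day mouse. It encodes the gamma subunit of the exchange complex of eEF1A. Its array A probe read 10.54 in the restricted liver, 11.34 in the 174-day liver and 11.34 in the 17-day liver. The other probes, on array B, read 10.65, 9.17, 9.08 and 8.09 in the restricted mouse, 10.93, 9.89, 9.41 and 8.82 in the 174-day mouse, and 10.91, 9.65, 9.51 and 8.60 in the 17-day mouse. The restricted mouse was lowest on each of these 5 probes, and the other mice lay close together. Probe differences ran from -0.80 to -0.28 with diet and from -0.80 to -0.26 against the 17-day mouse, with medians of -0.72 and -0.48, while the age difference was 0.02. The 2 dim probes gave 0.00 and 0.42 with diet, so the median over all 7 was -0.34. After the position correction the 5 probes were at -0.47 to -0.12, with a median of -0.24, so that the sign held and the size fell below 1.5-fold.

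**Figure D5:**
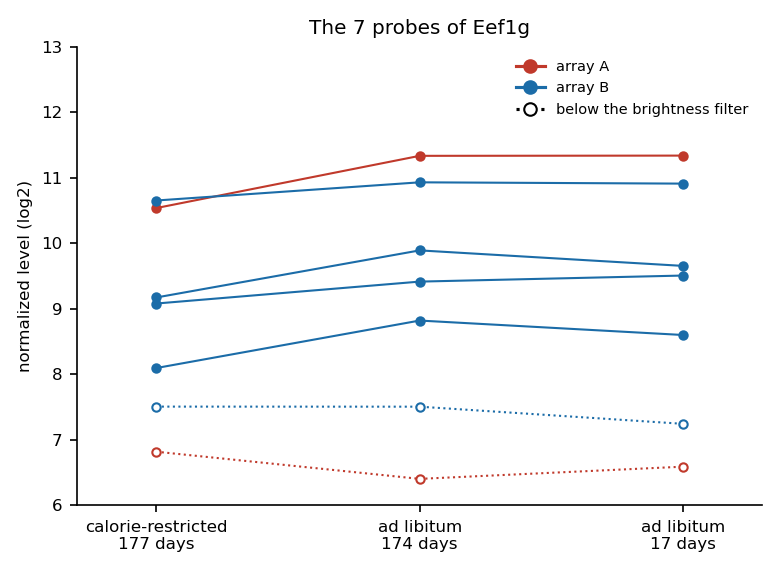
Normalized log2 level of each of the 7 Eef1g probes in the restricted, the 174-day and the 17-day mouse (array A red, array B blue, dim probes open and dotted). The 5 bright probes are lowest in the restricted mouse, and the 2 dim probes are not.

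Eef1a1, the delivery factor itself, did not share that pattern. Its 3 probes read 7.70, 9.56 and 9.32 in the restricted mouse, 7.88, 9.36 and 9.29 in the 174-day mouse, and 7.85, 9.22 and 9.14 in the 17-day mouse. The gene difference was 0.04 for diet and 0.14 for age. With median centring that for diet became -0.22, beside a median of -0.31 over all genes. Eif5a read 7.99, 8.15 and 8.16 in the restricted, the 174-day and the 17-day mouse, a diet difference of -0.16 that turned to 0.53 after the position correction.

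The 18 genes below the brightness filter were Eef1akmt1, Eef1b2, Eef1e1, Eif1ax, Eif2b2, Eif2b3, Eif2s2, Eif2s3x, Eif2s3y, Eif3d, Eif3e, Eif3f, Eif3h, Eif3l, Eif3m, Eif4e3, Eif4ebp1 and Eif4ebp3. They include every eIF2 subunit gene on the arrays and 6 of the 11 eIF3 genes. Eef1akmt1, which encodes a methyltransferase of eEF1A, and Eef1e1, for a protein of the aminoacyl-tRNA synthetase complex, met the symbol rule without being elongation factors. Over the 50 factor probes below the filter the differences ranged from -0.73 to 0.96 for age, from -1.08 to 1.57 for diet and from -1.02 to 0.90 for restricted against young, with medians of 0.09, -0.03 and 0.07. The highest diet value was that of Eif4e3, an eIF4E relative, which read 190.9 in the restricted mouse, 5.21 in the 174-day mouse, below the floor of 5.98, and 101.6 in the 17-day mouse. With no filter, the medians over all 44 genes were 0.08, -0.10 and -0.02.

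The partners and regulators of these factors are given by count and median, beside medians over all genes of -0.03 for age, -0.04 for diet and -0.09 for restricted against young. At 2-fold, 0.724% of all genes were higher and 0.440% lower with age, and 2.25% and 4.61% with diet. For restricted against young these shares were 0.466% and 1.11%. The lists are short, so a count of 0 or 1 gene is not read as a result. Kinases and phosphatase subunits acting on eIF2 or eEF2 had 5 genes compared of 7 on the arrays, with medians of -0.15, 0.06 and -0.07, and 0 were 2-fold apart. In mTORC1 and MNK signalling 11 of 16 were compared, with medians of 0.07, -0.12 and -0.14. There Mtor, the kinase of the complex, was 2-fold lower with diet (-1.08), with 8.69 in the restricted liver, 9.77 in the 174-day liver and 9.19 in the 17-day liver, and stood at -0.41 after the position correction.

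ATF4 induces amino acid and stress genes when eIF2 is phosphorylated. Of 12 genes listed for its pathway on the arrays, 7 were compared and 0 were 2-fold apart. Of all genes, at most 4.61% were 2-fold apart in any comparison and direction. The 7 include the ATF4 gene itself, at -0.175 for age and 0.21 for diet, beside its targets. The medians were -0.29 for age, 0.22 for diet and 0.04 for restricted against young. All 7 lay above 0 with diet, from 0.01 to 0.64, and 6 of 7 lay below 0 with age, both set against the same 174-day mouse. Of all genes, 52.7% lay below 0 with diet and 53.5% with age. Median centring gave medians over all genes of -0.31 for diet and 0.21 for age. With it 4 of 7 listed genes lay above 0 with diet and 4 of 7 below 0 with age. With the position correction these counts were 6 of 7 and 4 of 7.

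Partners in cap, poly(A) and recycling steps had 11 of 14 genes compared, with medians of 0.10, -0.19 and -0.14 for age, diet and restricted against young. Paip2, for a protein that binds and restrains the poly(A)-binding protein, read 11.34 in the restricted liver, 10.75 in the 174-day liver and 10.18 in the 17-day liver, and was 2-fold higher in the restricted than in the 17-day mouse (1.16). It stood at 0.92 after the position correction. Aminoacyl-tRNA synthetases had 9 of 19 genes compared, with medians of 0.22, -0.18 and -0.23. Yars, which charges tyrosine tRNA, was 2-fold lower with diet (-1.07) with 7.86, 8.93 and 8.52 in the restricted, the 174-day and the 17-day mouse, and stood at -0.56 after the position correction. At 2-fold, 0.466% of all genes were higher for restricted against young, and 4.61% were lower with diet. In the last lists 0 genes were 2-fold apart. Factors of termination, ribosome rescue and quality control (3 of 6) had a diet median of -0.52, and mitochondrial translation factors (3 of 7) one of 0.31. Genes of polyamine metabolism and of the hypusine modification of eIF5A (4 of 8) stood at 0.06. For the termination, rescue and quality control factors the diet median was -0.13 after the position correction. With no filter it was 0.07, where 4 of 6 lay above 0. With the position correction the mitochondrial median was 0.13 over 2 genes, and with median centring that of the polyamine and hypusine genes was -0.46. The mTORC1 and MNK diet median was -0.54 with median centring and 0.02 with the position correction. With median centring the synthetase diet median was -0.63 and that of the kinases and phosphatase subunits was -0.34. All values with median centring stand beside a diet median of -0.31 over all genes in that setting.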

How the data were processed

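Total RNA from 3 livers was measured on 2 kinds of array. The deposited numbers are taken to be linear spot intensity in arbitrary units, and how the authors made each intensity, with any background treatment or scaling, is not given in the sources used here. Single-symbol spots were named through the platform annotation, and all 88 factor spots matched RefSeq gene names. Left out were 20 spots with several symbols and 5 spots of 4 kinase genes.

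The deposited intensities were raised to each array's 5th percentile, converted to log2 and brought to 1 distribution (quantile normalization) within array A and within array B. Probes with a mean level above the 50th percentile of their array were used, which 1 high mouse can bring about, and gene values are medians over those probes. With 1 mouse per group, differences are descriptions with no test, and array number limits precision. Single genes were given values in each mouse if 2-fold apart, measured by several probes or among the brightest, and most others were named with their difference. Genes of the lists were named where 2-fold apart. The members and lists were chosen with earlier results of these data known.

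The alternatives were median centring, loess (span 0.3), a floor at the 25th percentile, no filter, the 75th percentile as filter, the brightest probe, 1.5-fold, each array alone, leaving out spots of exactly 10 or spots apart in 1 mouse, position correction and normalization without the 174-day mouse. The position correction, its block length, and the omission of spots of exactly 10 or apart in the 174-day mouse were taken over from earlier work that chose them after seeing these data. The block length was set where spots that far apart had the most alike differences. The procedure was checked on simulated data with planted differences and independent noise. These held no position effects and no spots apart in 1 mouse by error, so the check covers the calculation alone. Calculations ran in Python 3.11.15 (pandas 2.3.3, numpy 2.4.6, statsmodels 0.14.6, scipy 1.17.1), and plots were drawn with matplotlib 3.10.9.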

Additional observations from a re-analysis of the deposited data

How the results depend on the processing

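The median over factor genes changed sign under 2 alternatives, to 0.0116 for restricted against young with the position correction and to -0.10 for age on array B alone, against -0.20 and 0.03 as reported. With median centring of each array, the median over factor genes was 0.36 for age and -0.62 for diet, beside 0.21 and -0.31 over all genes. With that scaling 5 of 26 factor genes were 2-fold lower with diet, as were 613 of 3869 genes. With no brightness filter 1 of 44 factor genes, Eif4e3, was 2-fold higher with diet, as were 219 of 7151 genes. The median of restricted against young was then -0.0155. With the top 25% of probes, 15 factor genes remained and the diet median was -0.028. Of these 15, 0 were higher with age (5 of 1840 genes) and 0 were lower with diet (56 of 1840 genes). Eif2a and Eif2b1 were not among the 15, so neither could be counted. At 1.5-fold, 1 gene was lower with age, 2 were higher and 8 lower with diet, and 1 was higher and 2 lower for restricted against young. The shares over all genes at 1.5-fold are given with each comparison above. Without spots apart in the 174-day mouse, 0 were higher with age (12 of 3850 genes) and 1 was lower with diet (161 of 3850 genes). After the position correction 1 was lower with diet (78 of 3869 genes), and the medians were -0.0253 for diet and 0.0116 for restricted against young. Array A alone gave a diet median of -0.30 over 18 genes. Array B alone gave medians of -0.10 for age and -0.028 for diet over 11 genes. Of these, 0 were higher with age (9 of 2106 genes) and 0 lower with diet (94 of 2106 genes). Eif2a and Eif2b1 have no spot on array B, so neither could be counted there. The other 103 such comparisons held, but some settings could not move any factor value. Of the factor spots, 0 read exactly 10 and 0 were apart in the 17-day or the restricted mouse, so leaving such spots out changed nothing. A floor at the 25th percentile also left every factor gene value as it was. Leaving out spots apart in the 174-day mouse could only remove Eif2a. The brightest probe could not move the 19 genes with a single probe. Using 1 array alone could not move genes compared on that array only. The counts that held, here and for single genes, include all these cases, so they do not measure how stable the values are. Of single gene values, 908 held and 27 moved by at least the spread between probes, 12 of them with median centring and 8 with the position correction. The causes were not tested. Chosen after seeing these data, here or in earlier work on them, were the position correction, leaving out spots of exactly 10 or spots apart in any 1 mouse, and normalizing without the 174-day mouse. No paired analysis was possible because each group holds 1 mouse.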
